A study of Mus musculus with 8 samples.

Results

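The comparison was that of alveolar epithelial type II cells (AECII) sorted from experimental mouse lungs with AECII sorted from control lungs at E18.5, and its members were the 4 AECII arrays of the 8 arrays in the series, 2 experimental and 2 control, chosen by the sample titles. The experimental embryos carried a floxed Fgfr2b allele, and their mothers were given tamoxifen on E14.5 and again on E15.5. The controls were embryos of other females prepared identically, which means that the effects of genotype and of litter cannot be told apart. The sources used here do not give the alleles of the control embryos, the floxed exon, how the cells were gated, how many embryos were pooled per array, or a Cre driver beyond a series title that speaks of Sftpc-expressing cells. Each array gave a deposited log2 signal for 62976 spots, of which 43941 carried a gene symbol and formed 24306 genes, with the brightest spot standing for a gene. Of these, 13651 genes had a mean over the 8 arrays above the array median of 5.18, and gene groups were described over those genes.

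Fgfr2b is the epithelial splice form of FGF receptor 2. In the developing lung it receives FGF10 and related ligands from the mesenchyme and signals through the RAS-MAPK cascade to ETS factors such as Etv4 and Etv5. AECII make surfactant, which they pack into lamellar bodies, and the flat alveolar type I cells (AECI) form the gas exchange surface. Conducting airways hold multiciliated cells, whose motile cilia beat, and club cells, which secrete.

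The control AECII arrays correlated with r = 0.977 across genes, the experimental ones with r = 0.978, and arrays of different genotype with r of 0.969 to 0.974. Control replicate 2 and AECI control replicate 1 showed a male pattern of sex-linked transcripts, with a mean of the Y-linked genes of 8.63 and 8.90 against 3.61 to 4.30 on the other arrays. Sftpc, the surfactant protein that marks these cells, read 15.80 and 15.88 in control and 15.88 and 15.83 in experimental AECII, close to the top of the scale at 16.0. Epcam, a general epithelial surface protein, read 11.34 and 11.35 in control against 11.66 and 11.70 in experimental cells. Ager, an AECI marker, was also bright, with control AECII at 14.20 and 14.08 and experimental AECII at 14.05 and 14.05, and so was the club cell product Scgb1a1, at 14.55 and 14.58 against 15.31 and 15.09. Transcripts of other epithelial cells were thus measured in the sorted AECII, and in bulk samples fewer cells of a type and less RNA per cell cannot be told apart.

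Fgfr2 was read by 2 spots. On the brighter spot the control arrays read 12.60 and 12.62 and the experimental arrays 12.24 and 12.33, a difference of -0.33 ± 0.25 (SE, n = 2 per group, limma adjusted p = 0.766). The groups did not overlap on this spot, with both experimental arrays lower. The other spot gave overlapping groups, with control arrays at 10.70 and 10.79 and experimental arrays at 10.77 and 10.73. Since the floxed exon is not stated, neither spot can be taken as a check of the deletion. Here and below, an SE comes from the limma fit to the AECII and AECI arrays together, not from the AECII arrays alone.

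No single gene separated the genotypes by the limma fit with a common prior for the spread, in which 0 of 24306 genes passed an adjusted p of 0.05 (0%). The smallest adjusted p was 0.11, and 2002 genes had an unadjusted p under 0.05, 8.24% of all. When the prior was allowed to follow brightness (a mean-variance trend), 13 genes were higher (0.0535% of 24306) and 48 lower (0.197%). A robust prior called 0 genes and a fit to the 4 AECII arrays alone called 0. Leaving out control replicate 1 took the 61 calls of the trend fit to 0, and leaving out control replicate 2, experimental replicate 1 and experimental replicate 2 took them to 2, 8 and 2. Values of 2 arrays against 2 cannot give a two-sided exact permutation p below 0.333, so no such test was run on single genes. Groups of genes are therefore described below by how many members had groups that did not overlap and by their median. The background is broad: of the 13651 genes above the array median, 4530 had both experimental arrays above both control arrays (33.2%) and 3058 had both below (22.4%), and the median difference over all of them was 0.08. With each array centred on its median over named genes the shares were 25.5% and 28.4% and the median was -0.01, so that a list median is read against that of all genes and not against 0.

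The lists with the highest medians held cilium genes, followed by proteins of the endoplasmic reticulum (ER), transfer RNA charging and the TCA cycle of the mitochondrion. Next, close to each other, came endothelial markers (0.36), the proteasome, the mitochondrial ribosome and mesenchymal markers (0.34). Those farthest below held erythroid transcripts, olfactory receptors and non-coding RNAs. Lists of the type II cell program and of FGF and ERK targets had medians near 0.

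**Figure D1:**
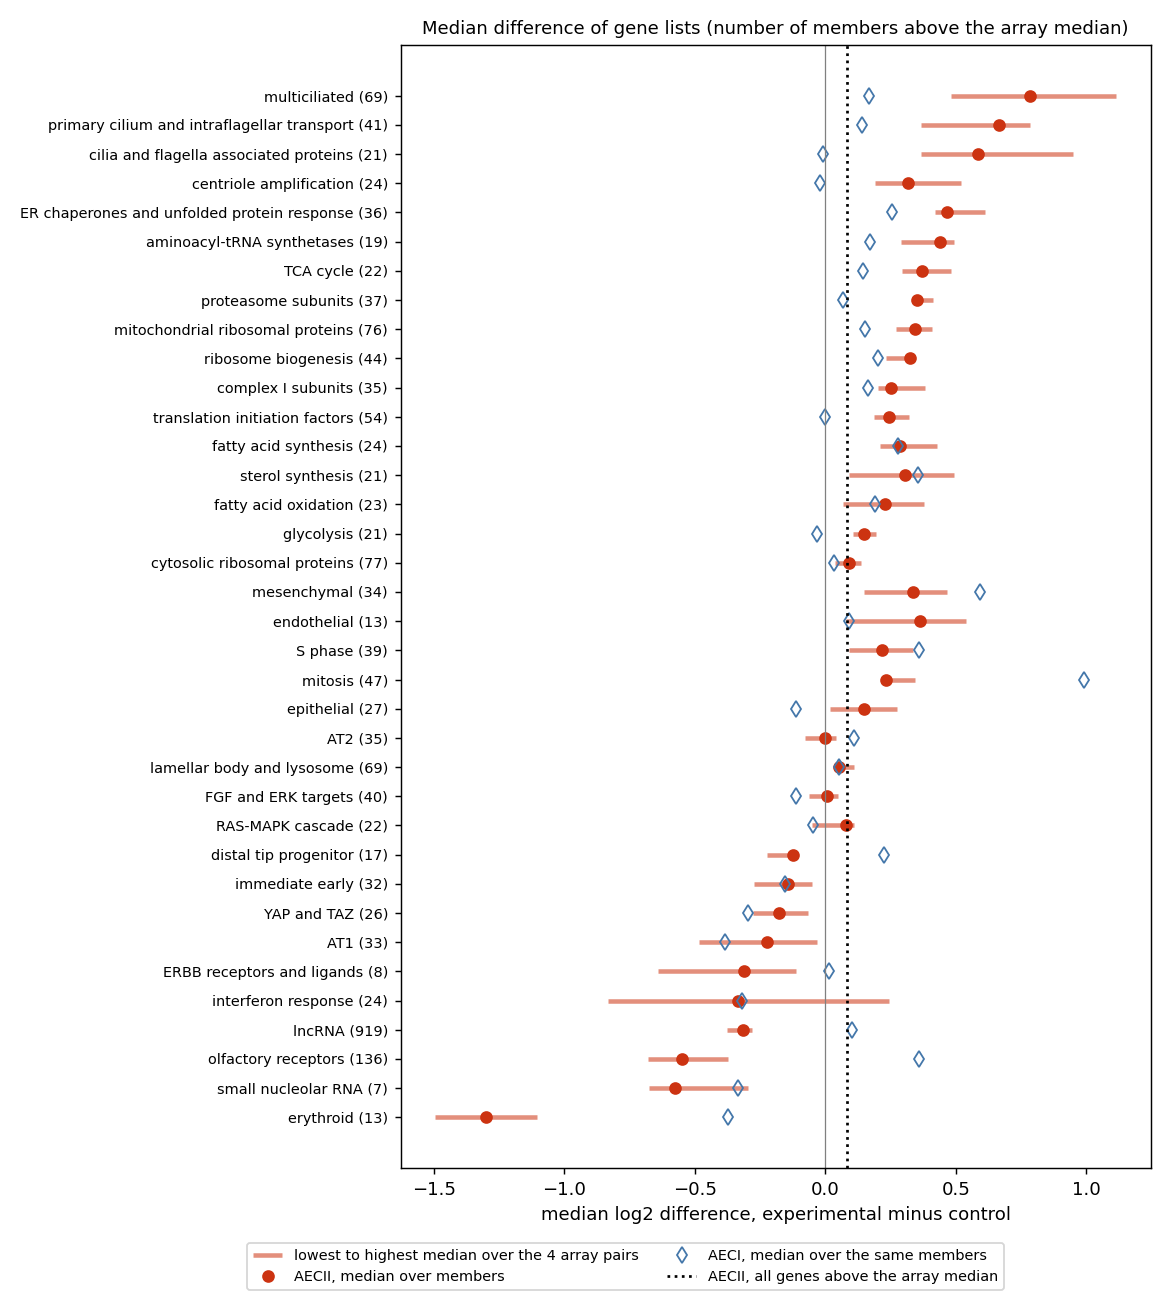
Median log2 difference (x axis, experimental minus control) of 36 gene lists (y axis, with the number of members above the array median). Filled points show AECII, bars run from the lowest to the highest median over the 4 pairs of 1 control and 1 experimental array, open diamonds show AECI and the dotted line is the AECII median of all genes above the array median (0.08). The multiciliated list lies at 0.78, AT2 at 0.00 and the erythroid list at -1.30.

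Motile cilia are built from a 9-fold array of doublet microtubules that carry dynein arms, radial spokes and a central pair, and intraflagellar transport (IFT) trains deliver the parts. The RFX factors and Foxj1 switch the program on, and RFX factors bind X-box motifs in the promoters of ciliary genes. To show what the members share in sequence, promoters of 300 bases, 250 before and 50 after the annotated start, were taken from RefSeq (GRCm38.p6) and searched on both strands for the X-box core GTTGCC, which is 1 arm of the full motif, the only X-box form described here. Promoters were found for 82 of the 103 listed multiciliated cell genes, and 39 of them held a match (47.6%). Among the 59 with a mean above the array median it was 30 (50.8%), among 43 IFT and transition zone genes 21 (48.8%), among all 27025 genes with a promoter 3821 (14.1%) and among the 10934 of them above the array median 14.7%. The list and the motif were chosen by function, so this share describes the list and says nothing about the arrays. The promoters of Mns1 (chr9:72438279-72438578, plus strand), Fam183b (chr11:58801911-58802210, minus strand) and Cfap298 (chr16:90934800-90935099, minus strand) are shown because these members held several matches and their groups did not overlap. Capitals mark this core or its reverse complement.
Mns1: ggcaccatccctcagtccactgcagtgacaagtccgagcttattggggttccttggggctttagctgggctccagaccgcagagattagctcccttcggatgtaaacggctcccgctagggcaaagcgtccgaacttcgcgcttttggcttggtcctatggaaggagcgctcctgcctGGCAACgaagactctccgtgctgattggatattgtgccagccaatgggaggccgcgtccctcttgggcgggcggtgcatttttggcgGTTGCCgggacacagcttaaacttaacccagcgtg
Fam183b: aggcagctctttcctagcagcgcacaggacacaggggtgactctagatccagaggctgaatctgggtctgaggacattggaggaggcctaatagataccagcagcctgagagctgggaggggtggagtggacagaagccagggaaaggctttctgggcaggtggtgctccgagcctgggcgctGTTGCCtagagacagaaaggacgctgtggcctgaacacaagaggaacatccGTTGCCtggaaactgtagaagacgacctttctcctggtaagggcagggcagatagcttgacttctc
Cfap298: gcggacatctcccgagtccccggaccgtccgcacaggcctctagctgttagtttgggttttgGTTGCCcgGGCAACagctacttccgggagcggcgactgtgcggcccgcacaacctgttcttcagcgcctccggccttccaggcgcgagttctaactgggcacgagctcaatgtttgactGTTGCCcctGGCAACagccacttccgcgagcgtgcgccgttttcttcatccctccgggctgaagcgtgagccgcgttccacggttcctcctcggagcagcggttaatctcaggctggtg
Mns1 and Fam183b held 2 matches each and Cfap298 held 4. A match is a run of letters and not a shown binding site.

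Of the 103 listed genes of multiciliated cells, 69 were above the array median, and in 41 of these both experimental arrays lay above both control arrays, in 7 both lay below. The median difference was 0.78, and it lay between 0.48 and 1.11 for the 4 pairs of arrays, against 0.08 for all genes. The mean level of the 69 genes was 8.29 and 8.08 in the control and 9.01 and 8.68 in the experimental arrays. None of the 69 passed with the trend prior, and 17 had an unadjusted p under 0.05 by limma. The median was smaller, at 0.24, over the 21 members above the upper quartile of spots (8.03), and it was 0.51 without experimental replicate 1. In AECI the median over the same genes was 0.17.

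Of the transcription factors and fate regulators 4 of 10 were higher (40%) and 0 lower, against 33.2% and 22.4% of all genes above the array median. Their median was 0.29, and it ran from -0.04 to 0.71 over the 4 pairs of arrays, so its sign depended on the pair. Foxj1, which drives the motile cilium program, read 10.21 and 9.83 in control and 11.60 and 10.72 in experimental AECII, a difference of 1.14 ± 0.41 (SE, n = 2 per group, adjusted p = 0.572). Both experimental arrays were higher, and they differed from each other by more than the lower of them differed from the higher control. Among the axonemal dynein chains, the motor subunits, 3 of 12 were higher (25%) and 1 lower (8.33%), with a median of 0.25. The share that was higher was thus below the 33.2% of all genes above the array median. Dnah5, an outer arm heavy chain, had the largest difference of these 12. It read 9.51 and 9.45 against 11.27 and 11.06, a difference of 1.68 ± 0.80. Its SE also takes in the spread of the AECI arrays and so need not match that of these AECII values. Dynein arm assembly and docking factors split, with 4 of 8 higher and 4 lower. Ccdc151, a docking complex protein, read 6.97 and 6.85 in control against 8.76 and 8.11 in experimental cells. Ccdc114, another protein of the same docking complex, went the other way and was bright, at 12.56 and 12.59 against 11.84 and 11.83, a difference of -0.74 ± 0.23.

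The structural proteins of the axoneme were the most uniform. All 10 radial spoke and central pair genes had a difference above 0 and 7 had groups that did not overlap, with a median of 0.98. Rsph9, a radial spoke head protein, read 7.93 and 7.91 in control and 9.21 and 8.95 in experimental AECII (1.16 ± 0.31, SE, n = 2 per group). In AECI its difference had the opposite sign, at -0.73. Of the 29 proteins of the nexin-dynein link, the length rulers and the tubule wall, 23 were higher and 2 lower, with a median of 0.93. Fam183b, a small ciliary protein, read 7.68 and 7.24 against 9.28 and 9.16 (1.76 ± 0.46), and Cfap52, a protein inside the doublet tubules, 6.81 and 6.67 against 8.24 and 8.08 (1.42 ± 0.36). Mns1, another protein of the tubule lumen, read 7.69 and 6.71 against 8.91 and 8.58. An exception in this group was Spata17, at 8.61 and 8.39 in control against 7.44 and 7.21 in experimental cells, lower in both.

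**Figure D2:**
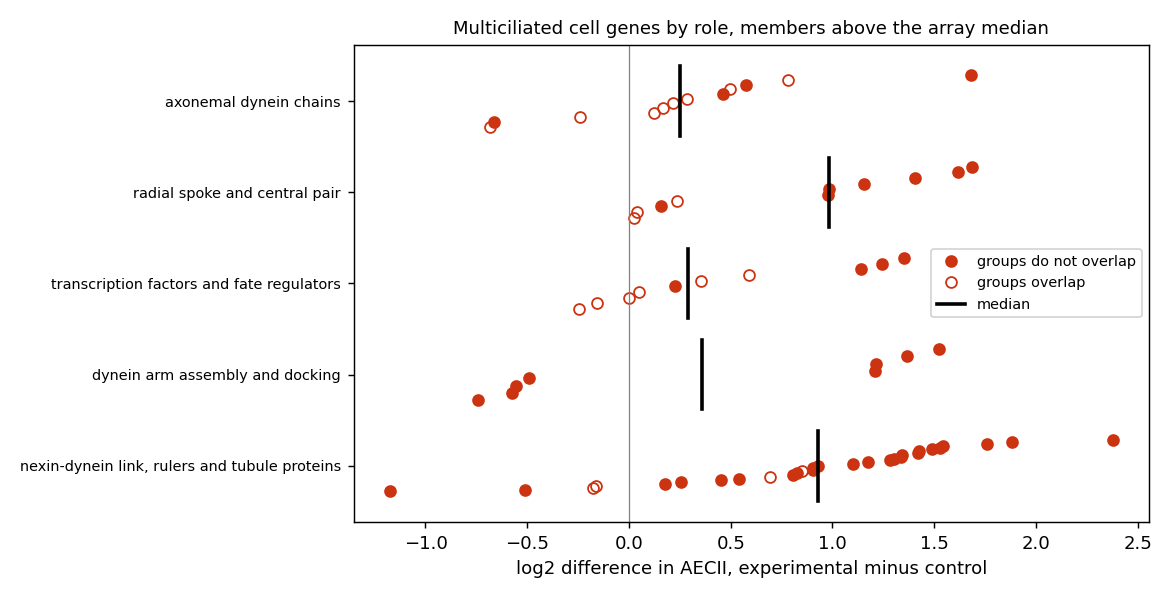
Log2 difference in AECII, experimental minus control (x axis), of the 69 multiciliated cell genes above the array median, by role (y axis). Filled points are genes whose groups do not overlap, open points those whose groups overlap, and black bars are medians, which run from 0.25 for axonemal dynein chains to 0.98 for radial spoke and central pair genes.

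Genes that all ciliated cells use went the same way. Of 41 genes of IFT, of the BBSome (the coat complex that carries membrane proteins in cilia) and of the transition zone, the gate at the cilium's base, 32 were higher and 4 lower. Their median was 0.67 (0.36 to 0.78 over pairs of arrays) and 11 had an unadjusted p under 0.05. Ift57, an IFT train subunit, read 7.84 and 7.53 in control and 9.02 and 8.95 in experimental AECII (1.30 ± 0.24, SE, n = 2 per group). Ift74, another, read 9.03 and 8.99 against 10.41 and 10.22 (1.31 ± 0.28, adjusted p = 0.0576 with the trend prior). Against them, Tctn2 of the transition zone read 10.87 and 10.81 in control and 9.91 and 9.96 in experimental AECII, and Bbs5 of the BBSome 9.83 and 9.76 against 8.73 and 9.22. The median was 0.34 over the members above the upper quartile of spots, 0.42 with the mean of all spots of a gene and 0.43 without control replicate 2.

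Centriole and basal body genes were higher in 12 of 24 and lower in 1 (median 0.32, or 0.21 without experimental replicate 1), among them Cetn2, a centrin of the basal body, at 11.32 and 11.04 against 12.23 and 11.87. Of 21 genes named as cilia and flagella associated proteins, a class that shares members with the multiciliated list, 14 were higher and 3 lower (median 0.58). Cfap298, which helps to assemble dynein arms, read 7.52 and 7.34 in control and 8.72 and 8.55 in experimental AECII (1.21 ± 0.31). Cfap126, which helps to place the basal body, read 9.79 and 9.62 against 11.27 and 10.49, with a difference of -1.03 in AECI. Cfap299, with a difference of 1.99 ± 0.26, read 6.41 and 6.48 against 8.65 and 8.22.

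Genes of the secretory cells of the airway were mixed. Of 34 club and goblet genes above the array median 14 were higher and 9 lower, with a median of 0.11 that was 0.05 without control replicate 1, 0.29 without control replicate 2 and 0.21 without experimental replicate 1. Scgb1a1 differed by 0.64 ± 0.45 (SE, n = 2 per group). Scgb3a1, a secretoglobin of the upper airway, read 9.09 and 9.04 in control against 10.44 and 9.58 in experimental cells, and Cyp2f2, a club cell cytochrome, 11.08 and 10.96 against 11.77 and 11.45. Fmo1, a flavin monooxygenase, read 8.73 and 8.88 in control and 6.39 and 7.48 in experimental AECII, the reverse direction. Basal cell genes were higher in 2 and lower in 3 of 10.

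Proteins that enter the secretory pathway are folded in the ER by chaperones and disulfide isomerases, and the unfolded protein response raises these genes together through Xbp1 and Atf6. Of 36 ER genes above the array median, 31 were higher, 0 were lower and 35 had a difference above 0. The median was 0.47 and varied little between pairs of arrays (0.42 to 0.61), and 12 had an unadjusted p under 0.05. Sdf2l1, a cofactor of the chaperone BiP, read 10.24 and 10.81 in control and 12.04 and 11.76 in experimental AECII (1.37 ± 0.35, SE, n = 2 per group, adjusted p = 0.0536 with the trend prior). Pdia4, a disulfide isomerase, read 9.22 and 9.50 against 10.14 and 10.42, and Sec61a1, the channel of the translocon, 9.86 and 10.11 against 10.99 and 10.76. The size of the difference was not uniform: Hspa5, which encodes BiP and was picked after its values were seen for the promoter shown here, read 13.06 and 13.36 against 13.77 and 13.38. In AECI the median of the list was 0.26.

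The ER stress element, CCAAT and CCACG with 9 bases between them, is the promoter sequence through which ATF6 and XBP1 act. It was found, on either strand, in 9 of the 31 ER genes with a promoter (29%) and in 0 of the 82 multiciliated cell genes. Among all 27025 genes with a promoter it was found in 37 (0.137%), and among the 10934 of them above the array median in 0.174%. The promoters of Hspa5 (chr2:34771840-34772139, plus strand) and Creld2 (chr15:88819396-88819695, plus strand) are given to show where the element, in capitals, sits. In Creld2 it is on the reverse strand.
Hspa5: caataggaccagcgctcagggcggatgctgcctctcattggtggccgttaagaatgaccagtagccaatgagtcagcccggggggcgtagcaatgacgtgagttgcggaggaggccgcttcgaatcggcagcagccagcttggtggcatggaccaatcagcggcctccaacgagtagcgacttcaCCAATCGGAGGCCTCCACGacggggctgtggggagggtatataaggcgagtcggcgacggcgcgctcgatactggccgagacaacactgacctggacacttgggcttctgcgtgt
Creld2: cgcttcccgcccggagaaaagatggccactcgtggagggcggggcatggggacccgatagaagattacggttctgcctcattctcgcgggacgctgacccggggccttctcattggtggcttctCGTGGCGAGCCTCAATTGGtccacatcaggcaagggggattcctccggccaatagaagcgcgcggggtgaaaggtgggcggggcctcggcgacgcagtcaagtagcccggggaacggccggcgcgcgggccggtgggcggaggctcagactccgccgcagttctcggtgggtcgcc
Creld2, an ER protein induced with the chaperones, read 11.15 and 11.42 in control and 12.01 and 12.08 in experimental AECII (0.76 ± 0.25). The element was searched for after the values of the list were seen. Both the list and the element were chosen by function, so this share describes the list and says nothing about the arrays.

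**Figure D3:**
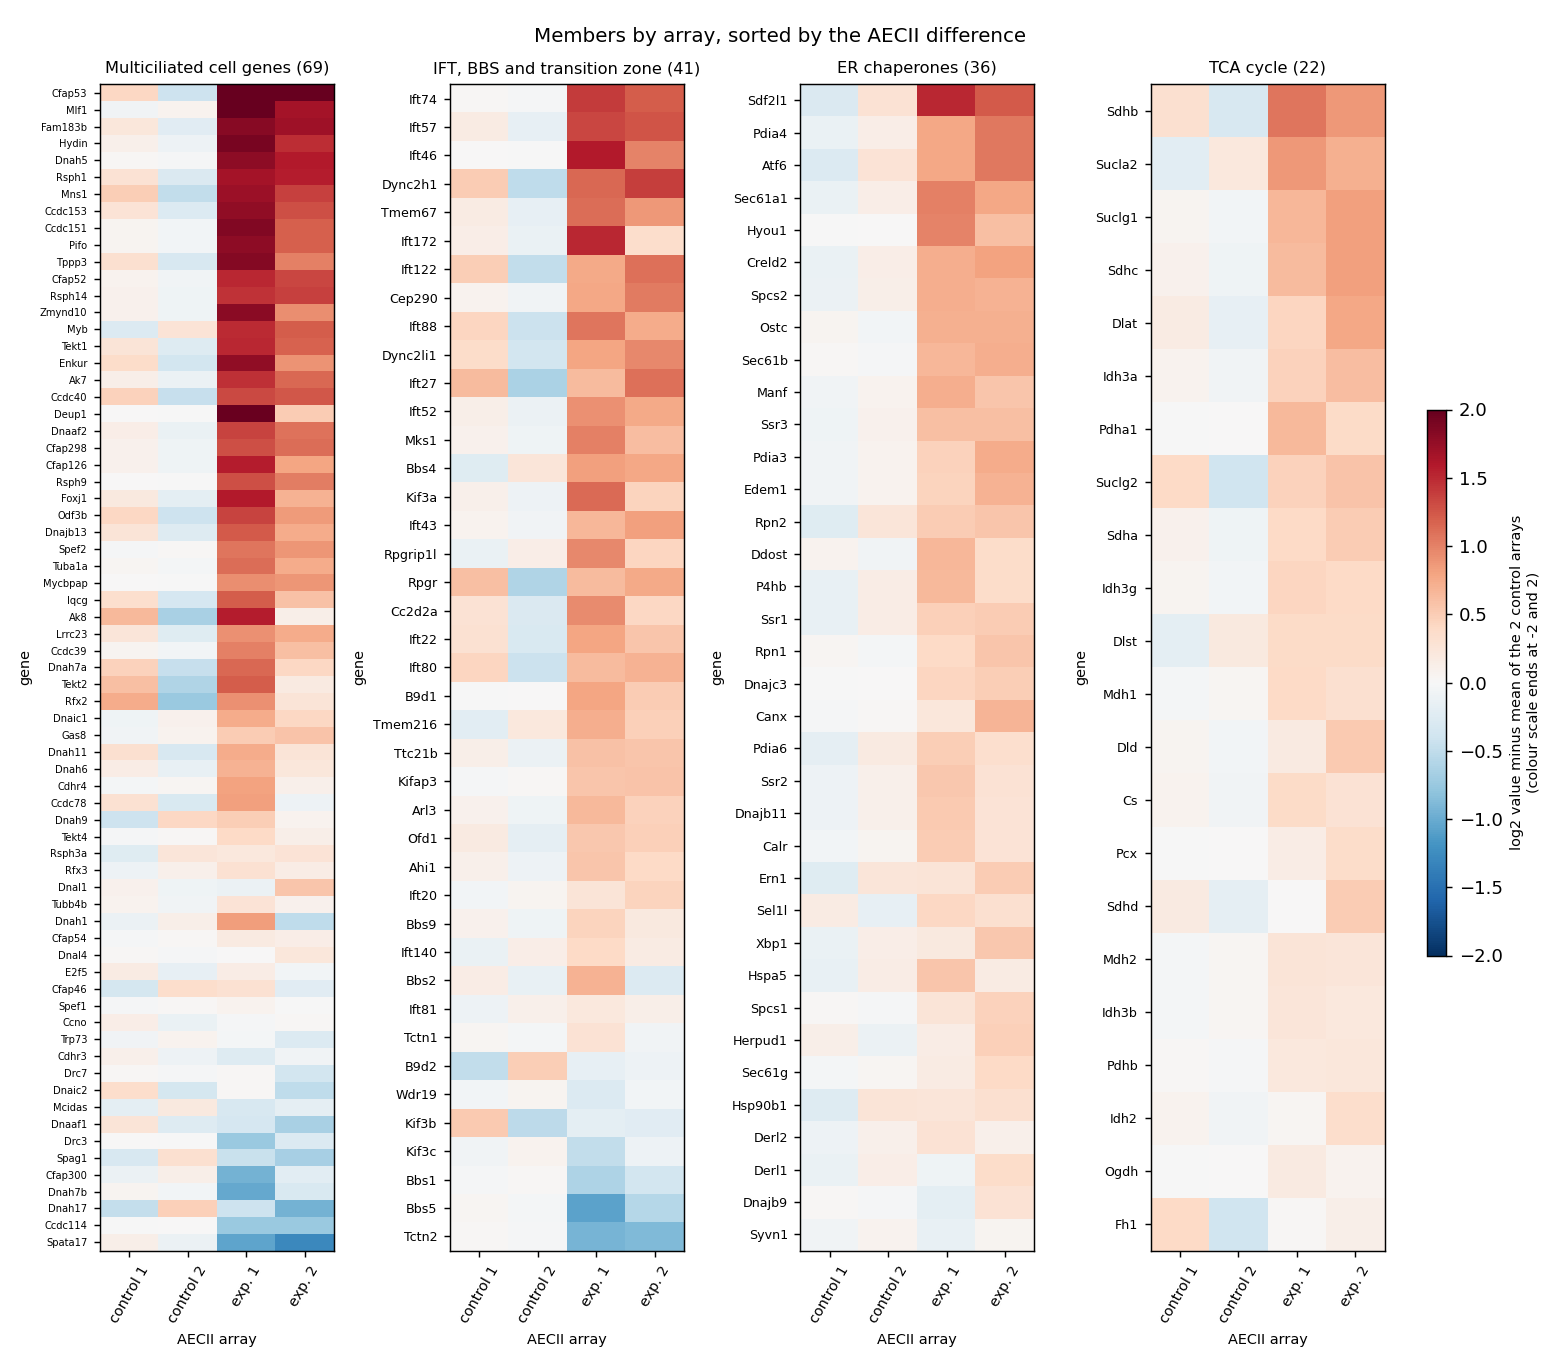
Log2 value minus the mean of the 2 control arrays (colour, from -2 to 2) of the members above the array median (y axis) in the 4 AECII arrays (x axis), for multiciliated cell genes (69), IFT, BBSome and transition zone genes (41), ER chaperones and related genes (36) and the TCA cycle (22). Both experimental columns are mostly above the controls in all 4 panels, and control replicate 2 is mostly below control replicate 1 in the first.

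Other parts of protein synthesis and turnover lay above the background in the same arrays. Of the 19 transfer RNA synthetases of the cytosol, which charge transfer RNAs with amino acids, all 19 had a difference above 0 and 14 had groups that did not overlap, with a median of 0.44. Sars, the seryl enzyme, read 8.48 and 8.54 in control and 9.21 and 9.10 in experimental AECII, and Hars, the histidyl enzyme, 7.85 and 8.06 against 8.54 and 8.81. Proteasome subunits were higher in 32 and lower in 2 of 37 (median 0.35), with Psmb5, a catalytic subunit, at 10.68 and 10.53 against 11.32 and 11.20. Translation initiation factors were higher in 27 and lower in 3 of 54 (median 0.24), nucleolar factors of ribosome biogenesis in 26 and 4 of 44 (median 0.32), and subunits of the RNA polymerases in 16 and 3 of 24 (median 0.28). Polr2k, a small subunit shared by the polymerases, passed with the trend prior (adjusted p = 0.0492) and read 11.25 and 11.60 in control against 12.72 and 12.20 in experimental cells. The proteins of the cytosolic ribosome differed less, with 22 of 77 higher, 5 lower and a median of 0.09, or 0.06 without experimental replicate 1. Of the 77, 62 had a difference above 0, and relative to protein-coding genes of like brightness the median was 0.11.

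In the mitochondrion, 22 of 22 genes of the TCA cycle had a difference above 0 and 19 had groups that did not overlap, with a median of 0.37 (0.29 to 0.48 over pairs of arrays). Sdhc, a membrane anchor of succinate dehydrogenase, read 11.49 and 11.31 in control and 12.04 and 12.23 in experimental AECII (0.73 ± 0.23, SE, n = 2 per group). Sucla2, a subunit of succinyl-CoA ligase, read 6.45 and 6.88 against 7.54 and 7.38. The mitochondrial ribosome was higher in 53 and lower in 2 of 76 proteins (median 0.34), with Mrpl10 at 7.72 and 7.66 against 8.55 and 8.46. Respiratory complex I was higher in 24 and lower in 0 of 35 subunits (median 0.25), all 35 with a difference above 0, and Ndufb6 of that complex read 9.93 and 10.05 against 10.72 and 10.64. Complexes III and IV had medians of 0.22 and 0.25 (0.145 for complex IV without control replicate 2) and ATP synthase 0.27. Relative to protein-coding genes of like brightness, a measure added after the data were seen, the medians were 0.41 for ER genes, 0.31 for the proteasome, 0.30 for the synthetases, 0.26 for the TCA cycle and 0.24 for the mitochondrial ribosome.

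Targets of ATF4, the factor that answers amino acid shortage, were mixed, with 8 of 20 higher and 6 lower and a median of 0.14. Among the members named here, enzymes and a transporter of amino acid supply were on the high side. Slc7a1, a cationic amino acid transporter, read 7.32 and 7.33 in control and 8.79 and 8.54 in experimental AECII (1.34 ± 0.24, SE, n = 2 per group). Asns, asparagine synthetase, read 7.90 and 8.07 against 9.59 and 8.85, and Mthfd2, a mitochondrial folate enzyme, 6.96 and 7.57 against 10.44 and 8.56, most of it in experimental replicate 1. On the low side were the stress factors Ddit3, which encodes CHOP, at 9.99 and 10.08 against 9.41 and 9.44, and Atf3, at 12.08 and 11.80 against 11.39 and 11.15. With the mean of all its spots the difference of Ddit3 was -0.016, against -0.613 on the brightest spot. This division of the named members was noticed after the values were seen and was not tested.

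Of 25 heat shock genes 12 were higher and 7 lower, with a median of 0.07 (-0.02 with each array centred, -0.05 with the mean of all spots, and 0.12 without control replicate 2 or 0.14 without experimental replicate 2). The members named next, Cryab, Hspa1a and Hspb1, were 3 of the 7 lower ones, and none of the 12 higher is named. Of the 25 genes, 14 had a difference above 0. Cryab, a small heat shock protein, passed with the trend prior (adjusted p = 0.0389) and read 10.84 and 10.86 in control against 10.10 and 9.98 in experimental cells. Hspa1a, the inducible HSP70, read 13.93 and 13.87 in control and 12.79 and 10.36 in experimental AECII, so that the 2 experimental arrays were far apart, and Hspb1 read 10.78 and 10.76 against 10.04 and 8.50. Of 32 immediate early genes, which respond quickly to growth factors and other stimuli, 3 were higher and 15 lower (median -0.14, or -0.25 without control replicate 2).

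Genes of the type II cell itself had a median near 0. The 35 AT2 markers divided into 17 above and 18 below 0, with 5 higher and 5 lower without overlap, a median of 0.00 (-0.09 with each array centred) and no member with an unadjusted p under 0.05. Sftpb, which encodes surfactant protein B, read 13.99 and 13.73 in control and 13.81 and 13.74 in experimental AECII, and Abca3, the lipid pump of the lamellar body, 10.82 and 10.81 against 10.77 and 10.86 on its brightest spot. With the mean of all its spots the difference of Abca3 was -0.87, so its value depends on which spot is read. The standard error on the brightest spot was 0.29 for Sftpb and 0.22 for Abca3 (n = 2 per group). Of 69 genes of lamellar bodies and lysosomes 24 were higher and 10 lower (median 0.05, or -0.04 with each array centred). Ppt1, a lysosomal thioesterase, read 8.42 and 8.03 against 9.48 and 9.35, while Gla, the lysosomal galactosidase, read 11.75 and 12.15 against 11.10 and 11.10. Enzymes of phosphatidylcholine synthesis and remodelling, which supply the main surfactant lipid, were higher in 7 and lower in 7 of 31 (median 0.03, or -0.06 centred).

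Synthesis of other lipids lay above the background. Fatty acid synthesis, elongation and desaturation genes were higher in 14 and lower in 1 of 24 (median 0.28), and Scd2, a desaturase, read 14.59 and 14.69 in control and 15.03 and 15.11 in experimental AECII. Sterol enzymes were higher in 12 and lower in 3 of 21 (median 0.30, or 0.15 without control replicate 2 and 0.19 without experimental replicate 2). Ebp, a sterol isomerase, read 7.34 and 7.49 against 8.29 and 8.41, while Mvk, the mevalonate kinase at the head of the pathway, read 8.70 and 8.95 against 7.72 and 7.56 and was the opposite. In AECI the medians of these 2 lists were 0.28 and 0.36, as large as in AECII. Glycogen genes, relevant because immature type II cells store glycogen, had a median of 0.27 over 15 genes, or 0.12 without experimental replicate 2, and glycolysis a median of 0.15 over 21.

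Targets of FGF and ERK signalling divided evenly, with 11 of 40 higher, 10 lower, 20 above 0 and a median of 0.01, or -0.08 with each array centred. All 3 ETS factors had a difference below 0. Etv5 read 11.90 and 12.40 in control and 11.97 and 11.91 in experimental AECII (-0.21 ± 0.27, SE, n = 2 per group), where the groups overlapped. Etv4 read 9.52 and 9.49 against 9.02 and 9.27 (-0.36 ± 0.37, or -0.79 with the mean of all its spots), lower in both. The feedback inhibitors, which ERK induces and which damp the pathway, had a median of -0.03 over 15 genes. Spry2, a Sprouty, read 11.87 and 11.66 in control against 12.12 and 11.62 in experimental cells, and Dusp6, an ERK phosphatase, 10.89 and 10.78 against 10.50 and 11.12, both with overlapping groups. Among the other targets Lrig3, a membrane protein, read 11.04 and 11.07 in control against 10.32 and 10.28 in experimental cells (-0.76 ± 0.21). Ccnd1 was the exception by size and is given with the cell cycle genes.

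Of 8 FGF receptors and co-receptors, 1 was higher and 2 lower. Fgfr1, the main receptor of mesenchyme, read 5.19 and 5.01 in control and 5.71 and 6.16 in experimental AECII, all close to the array median. Receptors and ligands of the ERBB family, which also feed the RAS-MAPK cascade, had a median of -0.31 over 8 genes, with 1 higher and 4 lower, and of -0.10 without control replicate 2 and -0.585 without experimental replicate 2. Hbegf, a ligand, read 10.94 and 10.87 against 10.07 and 10.28, and Erbb4, a receptor, 10.32 and 10.10 against 9.55 and 9.71. In AECI the difference of Erbb4 was 1.05. The kinases and adaptors of the cascade itself had a median of 0.08, close to that of all genes, and of -0.01 with each array centred or without experimental replicate 2. Heparan sulfate, the sugar chain that FGFs need to bind their receptors, was represented by 29 genes, 13 higher and 3 lower (44.8% and 10.3%). Of all genes 33.2% were higher and 22.4% lower. The median of the heparan sulfate list was 0.09, close to the 0.08 of all genes. With the trend prior 1 member of the list passed as higher and 1 as lower, and only the higher is named here. It was Sdc2, a core protein that carries heparan sulfate (adjusted p = 0.0492). Sdc2 read 7.88 and 7.81 in control against 9.31 and 9.05 in experimental cells.

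Markers of type I cells were lower in 15 and higher in 4 of 33, with 6 of 33 above 0 and a median of -0.22 (-0.49 to -0.03 over pairs of arrays), against -0.38 in AECI. Without experimental replicate 2 the median was -0.10, without control replicate 1 it was -0.13 and without control replicate 2 it was -0.38. In AECII these transcripts were dimmer than in AECI, with a mean level of 9.76 and 9.60 in control AECII and 12.17 and 12.10 in control AECI. Aqp5, the water channel of type I cells, passed with the trend prior (adjusted p = 0.00479) and read 10.08 and 9.98 in control and 8.61 and 8.15 in experimental AECII, a difference of -1.64 ± 0.27 (SE, n = 2 per group). Rtkn2, a rhotekin, also passed (adjusted p = 0.00479), at 8.61 and 8.29 against 6.71 and 6.54. With the mean of all spots the differences of Aqp5 and Rtkn2 were smaller, at -1.09 and -1.20, against -1.64 and -1.82 on their brightest spots. Akap5, a kinase anchor, passed as well (adjusted p = 0.0389), at 11.22 and 11.28 against 10.46 and 10.05. Ager and Hopx, the best known markers, differed by -0.09 ± 0.21 and 0.07 ± 0.27. One listed member, Sec14l3, a lipid transfer protein, was higher (adjusted p = 0.0478), at 11.88 and 11.79 against 12.91 and 12.52, and lay lower in AECI by a difference of -0.38. Targets of YAP and TAZ, the stretch-responsive cofactors active in type I cells, were higher in 4 and lower in 10 of 26 (median -0.18, or -0.07 without experimental replicate 2).

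Ccnd1, which encodes cyclin D1 and carries cells from G1 toward S phase, had the largest difference among the higher genes that passed with the trend prior (adjusted p = 0.00436, and 0.354 without the trend). It read 6.70 and 6.37 in control and 9.72 and 9.79 in experimental AECII, a difference of 3.22 ± 0.34 (SE, n = 2 per group), with a difference of 1.37 in AECI. Its partner kinase Cdk6 read 7.58 and 7.64 in control against 6.38 and 5.91 in experimental cells. The proliferation marker Mki67 read 9.42 and 9.30 against 9.53 and 9.43 (0.12 ± 0.29). Replication genes were higher in 17 and lower in 3 of 39 (median 0.21), and genes of mitosis in 23 and 6 of 47 (median 0.23). Without experimental replicate 2 these medians were 0.13 and 0.39. Within mitosis the members disagreed: Ncapg, a condensin subunit, read 5.82 and 5.41 against 6.71 and 6.81, but Aurkb, the kinase of the chromosomal passenger complex, 8.73 and 8.91 against 8.0 and 8.23. In AECI the median of the mitosis list was 0.99.

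Several single genes that passed with the trend prior belong to none of these groups. Irx3, an Iroquois transcription factor of the airway and distal epithelium, read 9.66 and 9.04 in control and 11.26 and 11.48 in experimental AECII (2.02 ± 0.30, SE, n = 2 per group, adjusted p = 0.00491) and had a difference of 1.78 in AECI. Emp1, an epithelial membrane protein, read 10.89 and 10.85 against 12.20 and 12.12 (1.29 ± 0.23, adjusted p = 0.00479), and its difference in AECI was -0.17. Perp, a desmosomal protein and p53 target, read 10.78 and 10.73 against 11.56 and 11.72. H19, an imprinted non-coding RNA of fetal tissue, read 10.57 and 10.38 against 11.66 and 11.28 (adjusted p = 0.0478). It ran against the median of the long non-coding RNAs, which was -0.32, though 10.3% of them were also higher. Spcs3, a subunit of the signal peptidase of the ER, read 11.27 and 11.54 against 12.52 and 12.24. Dera, an aldolase of deoxyribose phosphate, read 8.13 and 7.83 against 9.88 and 9.94. Dynlt1c and Dynlt1f, copies of a dynein light chain that are nearly identical and may share signal, differed by 1.71 ± 0.22 and 1.21 ± 0.23. Copb2, a Golgi coat subunit that fell outside the naming rule, completed the 13, but the mean of its spots gave a difference of -0.46.

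On the low side Neat1, the long non-coding RNA that builds paraspeckles, read 10.49 and 10.70 in control and 8.65 and 8.37 in experimental AECII (-2.09 ± 0.24, SE, n = 2 per group, adjusted p = 0.00315 with the trend prior, 0.354 without) and had a difference of -1.42 in AECI. Zdhhc22, a palmitoyl transferase, read 9.42 and 8.94 against 6.74 and 6.61. Rerg, a RAS-like growth inhibitor, read 9.15 and 8.88 in control against 3.56 and 5.98 in experimental cells, so that experimental replicate 1 lay below the array median and the size of the difference is approximate. Snhg11, a host of small nucleolar RNAs, read 10.20 and 10.76 against 8.82 and 9.01. Wnt5a, a Wnt ligand, read 11.39 and 11.24 against 10.28 and 10.50 on its brightest spot (adjusted p = 0.047), while the mean of its spots gave a difference of 0.83, the opposite direction. Cxcl16, an epithelial chemokine, read 11.29 and 11.07 against 10.14 and 10.12 (adjusted p = 0.0385). Parp9, an interferon-induced gene, read 11.34 and 11.08 against 10.11 and 10.08 (adjusted p = 0.0415). The interferon list as a whole had a median of -0.34, but it ran from -0.83 to 0.24 over the pairs of arrays. Control replicate 2, with the male pattern, was 0.69 above control replicate 1 in the median of this list, and the median was 0.22 without control replicate 2 and -0.81 without control replicate 1.

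**Figure D4:**
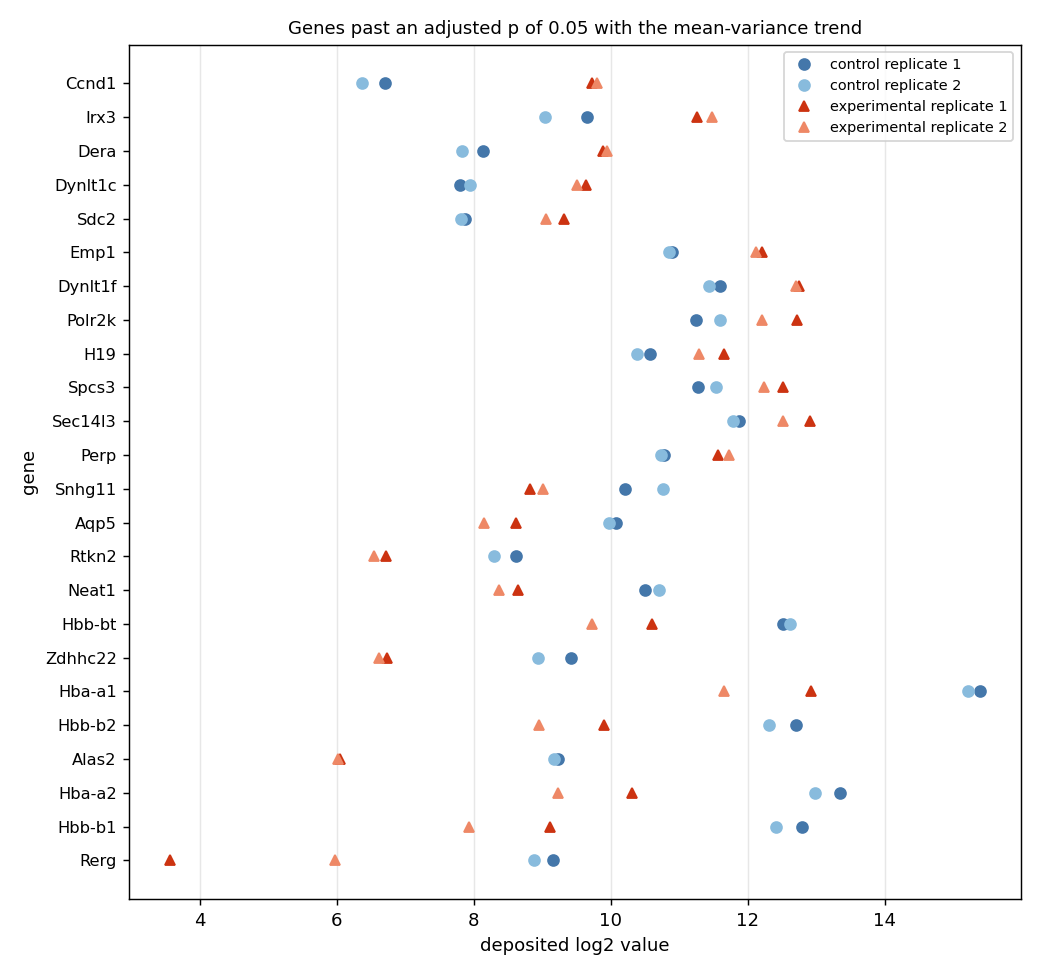
Deposited log2 value (x axis) of 24 genes (y axis) that passed an adjusted p of 0.05 with the mean-variance trend, 12 higher and 12 lower in experimental AECII. Circles are the 2 control arrays and triangles the 2 experimental arrays. The arrays of the genotypes do not overlap for any of them, as the naming rule required, and the globins and Rerg differ most between the experimental replicates.

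Transcripts of other cell types differed between the groups and are given here as measured. Their part in the results above was not tested. Of 13 erythroid genes above the array median, 2 were higher and 8 lower, with a median of -1.30, and the mean level of the list was 11.3 and 11.2 in control and 10.1 and 9.54 in experimental AECII. Alas2, which starts heme synthesis in red cells, read 9.23 and 9.17 in control against 6.05 and 6.02 in experimental cells (-3.17 ± 0.22, SE, n = 2 per group, adjusted p = 0.11, and 0.00479 with the trend prior), against a difference of -5.36 in AECI. Hbb-b1, an adult globin whose near-identical copies make its value uncertain, read 12.79 and 12.40 against 9.12 and 7.92. Over all measured members, dim ones included, the median of the list was -0.20. All 6 erythroid genes that passed with the trend prior were Alas2 and globins.

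Mesenchymal genes were higher in 17 and lower in 0 of 34, with a median of 0.34 and a mean level of 8.08 and 7.92 in control and 8.55 and 8.40 in experimental AECII. In AECI the median was 0.59. Loxl1, an enzyme that crosslinks elastin, read 4.11 and 4.37 in control, below the array median, and 6.04 and 6.42 in experimental cells. Postn, a matrix protein, read 4.99 and 4.63 against 6.20 and 6.71, and Ptn, a growth factor, 7.49 and 7.08 against 8.96 and 8.41. With the mean of all spots the difference of Postn was 0.801 against 1.649 on its brightest spot, and that of Ptn 1.881 against 1.405. Pdgfrb, a pericyte receptor, read 4.97 and 4.74 against 7.03 and 6.25. The control values of Postn and Pdgfrb, like those of Loxl1, lay below the array median of 5.18, so the sizes of these differences are approximate. Endothelial genes were higher in 6 and lower in 1 of 13, with a median of 0.36 (0.15 without control replicate 1, 0.21 without experimental replicate 2) and mean levels of 5.73 and 5.94 in control against 6.06 and 6.17 in experimental cells, and leukocyte genes were higher in 1 and lower in 5 of 15 (median -0.14, or -0.28 without control replicate 2). General epithelial genes were higher in 10 and lower in 2 of 27 (median 0.15, or 0.08 without control replicate 2 and 0.09 without experimental replicate 1).

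Kinds of transcript differed as well. Of 12495 protein-coding genes above the array median 35.1% were higher and 20.3% lower, with a median of 0.10, while of 919 long non-coding RNAs 10.3% were higher and 48.0% lower, with a median of -0.32. In AECI the median of the same 919 was 0.10. Olfactory receptors, the odorant receptors of the nose, were higher in 5 and lower in 71 of 136 above the array median (of 1083 measured), with a median of -0.55 in AECII, or -0.15 over all measured, and 0.36 in AECI. Vomeronasal receptors were higher in 1 and lower in 13 of 32. Small nucleolar RNAs had a median of -0.58 over 7 genes (-0.34 without control replicate 2, -0.38 without experimental replicate 1) and small nuclear RNAs -0.51 over 7, with 0 higher in either class. Potassium channels were higher in 3 and lower in 14 of 40 (median -0.17, or -0.10 without control replicate 2), among them Kcnma1, a calcium-gated channel of smooth muscle, at 9.02 and 8.55 against 7.10 and 7.37.

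The difference between long non-coding RNAs and protein-coding genes widened with brightness up to the bin of 10 to 12 and was smallest in the brightest bin. For long non-coding RNAs the median went from -0.21 in genes with a mean of 5.18 to 6.50 to -0.54 in the 25 genes of 12 to 14, and was -0.13 in the 22 brightest. For protein-coding genes it went from 0.14 to -0.05 over the same bins. At 10 to 12 the medians were -0.49 for long non-coding RNAs and 0.10 for protein-coding genes, and at 12 to 14 they were -0.54 and 0.02.

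**Figure D5:**
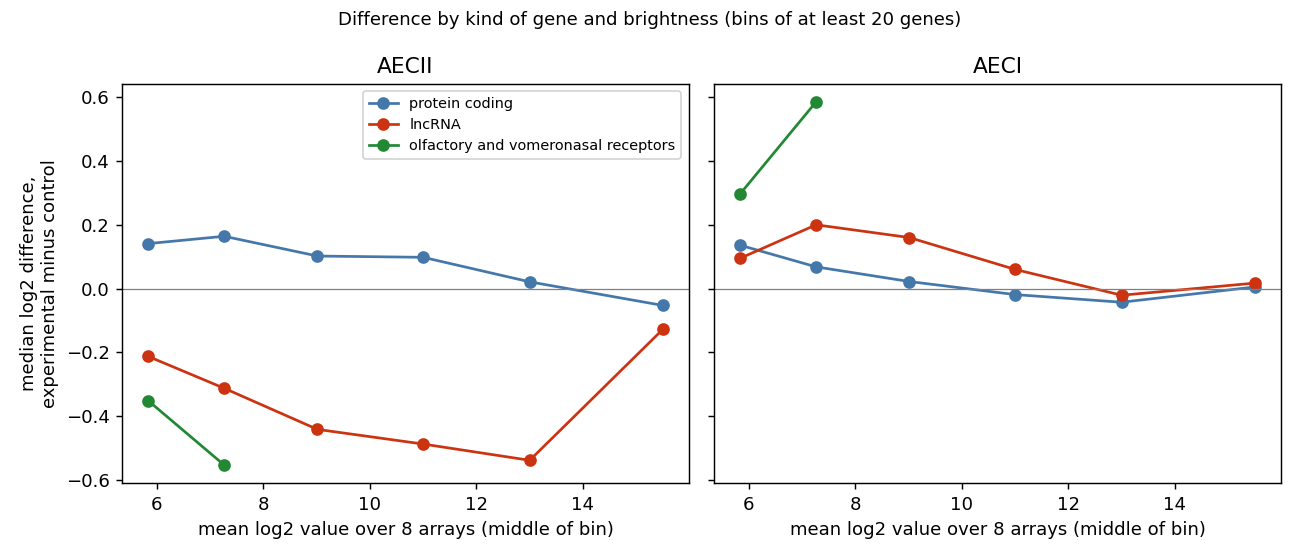
Median log2 difference, experimental minus control (y axis), by mean log2 value over the 8 arrays (x axis, middle of each bin) for protein-coding genes, long non-coding RNAs and olfactory and vomeronasal receptors, in AECII (left) and AECI (right). In AECII long non-coding RNAs and the receptors lie below 0 in every bin drawn and protein-coding genes near or above 0, and in AECI the order differs.

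A test of whether the genotype difference itself differed between AECII and AECI called 0 of 24306 genes by limma (0%), with 2095 at an unadjusted p under 0.05, and called 0 with the mean-variance trend as well. The AECII and AECI values given side by side are therefore not shown to differ for any single gene.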

How the data were processed

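Expression was measured on 8 one-colour arrays of Cy5-labelled, amplified cDNA, 1 array per sample. The values deposited by the authors were log2 signals, normalised between arrays before deposit: the sorted values of any pair of arrays differed by at most 0.0056. In the submitters' processing notes limma is the only tool named, with no version. The sources used here give neither the background correction nor detection flags. Array signals carry no depth, and precision is limited by how many arrays there were. Groups came from the sample titles, and 0 value columns were unmapped. Whether replicates came from separate animals is not stated, so the p-values may reflect technical spread alone.

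Of 43941 named spots, 33708 were named through their accession in RefSeq (GRCm38.p6), 9763 by a symbol still in use, 463 by an older synonym and 7 as annotated. The brightest spot by mean over the 8 arrays stood for each of the 11040 genes with several spots. The test was limma (version 3.58.1, R 4.3.3), with 4 group means over all 8 arrays, 4 residual and 2.262 prior degrees of freedom and Benjamini-Hochberg adjustment over 24306 genes at 0.05. The SE of each difference came from the same fit, so it pools the spread of all 8 arrays, AECI included, with the prior. The mean-variance trend, a robust prior, filters on dim genes, other spot rules, centring, the replicate number as a block, the male pattern as a covariate and leaving out each array were alternatives. The steps were tested on simulated data in 10 draws. There the limma fit called 0.2% of the genes changed by 1 log2 unit in AECII, 24% of those changed by 2 and 69.8% of those changed by 4. With the trend these shares were 10.2%, 33.4% and 77.6%. A gene that was not called may thus still differ. Software was Python 3.11.15 with pandas 2.3.3, numpy 2.4.6 and matplotlib 3.10.9.

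Same-numbered AECII control and experimental arrays deviated from their group means with a correlation of 0.009, so the numbers were not taken as pairs. Named genes were a fixed set of markers, the largest differences past the threshold by either prior, at most 12 in each direction, and from each described list the members of smallest p whose groups did not overlap, all above the array median. The gene lists, their members and the naming rule were chosen with earlier results of these data known.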

Additional observations from a re-analysis of the deposited data

Results flagged for a closer look

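For 8 named genes both experimental AECII arrays lay on one side of their controls while both experimental AECI arrays lay on the other side of theirs. In the limma test of the difference between the genotype differences their adjusted p was 0.538 to 0.549, so none is shown to differ between the populations. Relative to AECI, the AECII difference was larger by 3.47 on the log2 scale for Cfap52, by 2.21 for Cfap126 and by 1.88 for Rsph9, all proteins of the motile cilium, with AECII differences of 1.42, 1.18 and 1.16 and AECI differences of -2.05, -1.03 and -0.73. It was larger by 1.26 for Sec14l3 and by 1.09 for Perp. The AECII difference minus the AECI difference was -1.63 for Erbb4, -0.99 for Bbs5 and -0.90 for Aurkb, each lower in experimental AECII and higher in experimental AECI. The groups of 2 arrays were too small to look for single arrays far from the others.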

How the results depend on the processing

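The count of genes passing an adjusted p of 0.05 in AECII was 0 by limma and 61 with the mean-variance trend, 1 over genes above the array median and 112 over those genes with the trend. It was 0 with a robust prior, the mean of all spots, centred arrays, the male pattern as a covariate, the AECII arrays alone and without any 1 array. The trend count ran from 0 to 156 without 1 array, a fit added after seeing the data that takes the spread of a group left with 1 array from the rest. With the replicate number as a block the count was 0, with the crossed numbers, chosen after seeing the data, 0, and the block changed no other call. The count for the difference between AECII and AECI was 0 under every alternative that gave one.

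Of the list medians, that of multiciliated genes was 0.238 above the upper quartile. The IFT median was 0.419 with the mean and 0.411 with the median of all spots, 0.337 above the upper quartile and 0.501 relative to protein-coding genes of like brightness. Centring gave 0.378 for ER genes, 0.261 for the proteasome, 0.282 for the TCA cycle, 0.256 for mitochondrial ribosomes, 0.350 for the synthetases, -0.088 for AT2, -0.083 for FGF targets and 0.248 for mesenchymal genes. Relative to like brightness the proteasome gave 0.309, the TCA cycle 0.258, mitochondrial ribosomes 0.237, the synthetases 0.298, FGF targets -0.094 and mesenchymal genes 0.225. With the mean of all spots the TCA cycle gave 0.258, AT2 -0.057, mesenchymal genes 0.404 and erythroid genes -1.847. With the median of all spots AT2 gave -0.063, mesenchymal genes 0.475 and erythroid genes -1.847. Over all measured genes the erythroid median was -0.195 and that of olfactory receptors -0.154, and above the upper quartile the erythroid median was -2.394.

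Without 1 AECII array the medians ran from 0.509 to 0.952 for multiciliated genes, 0.432 to 0.676 for IFT, 0.424 to 0.565 for ER genes, 0.328 to 0.454 for the TCA cycle, 0.339 to 0.515 for the synthetases, 0.355 to 0.430 for the proteasome, 0.280 to 0.394 for mitochondrial ribosomes, 0.350 to 0.425 for mesenchymal genes, -0.380 to -0.100 for AT1, -0.040 to 0.043 for AT2, -0.033 to 0.049 for FGF targets, -1.496 to -1.105 for erythroid genes and -0.622 to -0.433 for olfactory receptors.

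The sign of some single genes turned. With the mean of all spots the difference was -0.459 for Copb2, -0.028 for Spry2 and 0.827 for Wnt5a. It was -0.872 for Abca3 against -0.000 on the brightest spot. Of 98 single genes followed, 3 turned, 3 had a difference larger by over 1.5 times (Abca3, Ager and Etv4) and 27 a smaller one. The smallest of those in size were -0.016 for Ddit3, -0.136 for Ccdc114, -0.139 for Erbb4, -0.158 for Fgfr2, -0.163 for Spata17 and -0.189 for Tctn2. Then came 0.213 for Hspa5, -0.220 for Kcnma1, -0.224 for Parp9, 0.291 for Ncapg and -0.329 for Bbs5. Sec61a1 was at 0.373, Sars at 0.397, Ebp at 0.398, Hyou1 of the ER list at 0.410, Ift57 at 0.419 and Dera at 0.456. With centring the difference was -0.017 for Hopx and -0.078 for Sftpc. Without 1 array the differences ran through 0, from -0.046 to 0.046 for Abca3, -0.339 to 0.280 for Dusp6, -0.458 to 0.043 for Etv5, -0.160 to 0.302 for Hopx, -0.212 to 0.047 for Sftpb, -0.029 to 0.049 for Sftpc and -0.145 to 0.353 for Spry2. The cause of these moves was not tested.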

Other observations

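Other gene groups are set beside the background of 33.2% higher and 22.4% lower. Among signalling pathways of lung development, Wnt genes were higher in 10 and lower in 8 of 25 above the array median, genes of BMP and TGFb signalling in 9 and 11 of 36, Notch genes in 6 and 5 of 16 and Hedgehog genes in 4 and 2 of 10. The medians of the Wnt and the BMP and TGFb lists were 0.06 and 0.05 and turned to -0.03 and -0.04 with each array centred and to -0.13 and -0.09 without experimental replicate 1. Transcription factors of the lung epithelial lineages were higher in 12 and lower in 9 of 37, and the imprinted growth network, which includes H19, in 8 and 4 of 22. Regulators of the distal tip, the progenitor zone of the branching lung, were higher in 3 and lower in 8 of 17, 17.6% and 47.1% (median -0.12, or -0.21 without control replicate 1 and -0.07 without control replicate 2).

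Of 29 epithelial chemokines and defence genes, 4 were higher and 11 lower, 13.8% and 37.9%, with a median of -0.12 (-0.06 without control replicate 2, -0.07 without experimental replicate 1). The antigen presentation genes had a median of 0.02 over 18, with 3 higher and 3 lower, but its sign depended on the array kept, with -0.21 without control replicate 1 and 0.27 without control replicate 2. Of 46 RAB GTPases, which direct vesicle traffic, 21 were higher and 4 lower (median 0.20, or 0.30 without experimental replicate 1), and of 20 tubulins 11 and 2 (median 0.21). Hs6st2, which sulfates heparan sulfate, read 4.96 and 5.81 in control and 8.18 and 7.83 in experimental AECII, a difference of 2.62 ± 0.67 (SE, n = 2 per group, limma adjusted p = 0.529), of which the size is approximate because control replicate 1 lay below the array median of 5.18. Gsr, glutathione reductase, read 10.92 and 10.84 against 11.96 and 11.69, within an antioxidant list that was higher in 13 and lower in 7 of 40.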
